A study of Arabidopsis thaliana with 6 samples.

Results

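WRKY transcription factors are plant proteins that carry the WRKY domain, a DNA-binding stretch next to a zinc finger, and bind the W box in promoters. Many act in immunity, downstream of salicylate and of mitogen-activated protein kinases, and others act in leaf senescence, phosphate supply, seeds and pollen. Most group I proteins have a pair of WRKY domains, groups IIa to IIe have a single one with the same kind of zinc finger, and group III has another kind of zinc finger. Trimethylation of histone H3 at lysine 4 (H3K4me3) marks the start of transcribed genes. Polycomb Repressive Complex 2 places the trimethyl mark at lysine 27 (H3K27me3), and genes under it are mostly silent.

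The members were the protein-coding genes of the nuclear chromosomes whose symbol in the RefSeq gene table is WRKY followed by digits. There were 67 such genes among 27444 protein-coding genes. Another 5 genes carry a WRKY number only as a synonym. They were left out of the counts and are described on their own.

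The tissue was young leaf of the Arabidopsis thaliana accession Columbia-0 (strain Col0), from soil-grown plants at 22.5 °C with a daily 8 h of light followed by 16 h of darkness. The 6 samples were 2 immunoprecipitations (ChIP) for H3K4me3, 2 for H3K27me3, 1 of input DNA and 1 of mRNA, and the labels name no treatment or mutant. Each mark has a single deposited domain list, and mRNA has a table giving each gene a mean exon read depth, so replicate spread could not be measured, the read numbers are unknown, and no comparison below has a p-value. Unlisted genes were set to a depth of 0, which says only that no depth was given. In bulk leaf tissue, fewer cells with a transcript and less transcript per cell cannot be told apart, and the same holds for a mark.

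The library had the make-up of green leaf. The 5 leaf genes examined (RBCS1A, RCA, LHCA3, CA1 and GAPB) had depths from 864.3 to 12915. The 4 seed genes (CRA1, CRU3, SESA1 and OLEO1) were not listed. Of 4 flower organ genes, AP3 and PI were not listed, AG had a depth of 1.41 and SEP3 of 1.00. Of 4 root genes, RHD6, EXPA7 and SHV2 were not listed, and SCR, which also acts in leaves, had 11.7.

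H3K27me3 was found on more WRKY genes than its share among all genes, and overlap of the marks was frequent at the lenient call used first. A mark was assigned to a gene from 150 covered bases of its body upwards. H3K27me3 was on 38 of 67 members, 56.7% (exact 95% interval 44.0 to 68.8%), against 31.0% of all protein-coding genes. H3K4me3 was also on 38 of 67, 56.7%, against 64.4% of all genes. By combination, 22 members had H3K4me3 alone (all genes 54.2%), 16 had both marks (all genes 10.1%), 22 had H3K27me3 alone (all genes 20.8%) and 7 had neither (all genes 14.8%). The intervals cover counting error over genes only.

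Under stricter calls the H3K27me3 share stayed above that of all genes, and the overlap of the marks nearly vanished. When domains below their list's median score were dropped, 31 members had H3K27me3, against 21.6% of all genes, and 15 had H3K4me3, against 36.0%. With at least 50% of the body covered, 30 members had H3K27me3, against 22.1% of all genes, and 12 had H3K4me3, against 15.5%. Both marks were then left on 1 member under either rule, 1.49%, against 1.01% of all genes under the score limit and 1.49% at 50% of the body. Gene length was close, with a median of 2006 bases for members and 2078 for all genes. Among genes whose length lay in the middle of the members' range (1644 to 2484 bases, the quartiles), 18 of 33 members (54.5%) carried H3K27me3, against 29.6% of all genes.

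**Figure D1:**
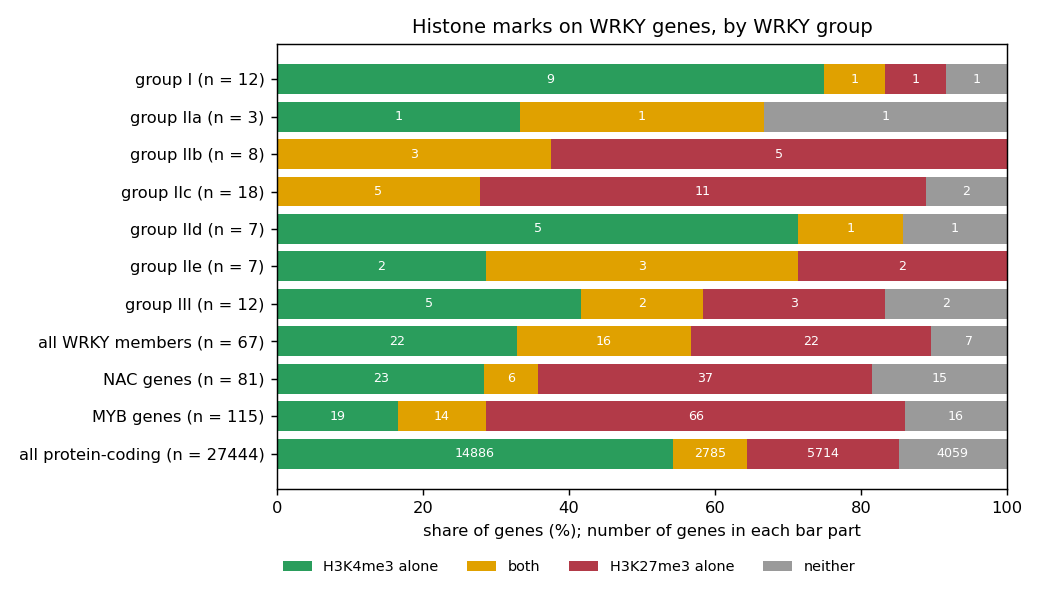
Stacked bars give the share of genes (%, horizontal axis) with H3K4me3 alone, both marks, H3K27me3 alone or neither, for each WRKY group, all WRKY members, NAC genes, MYB genes and all protein-coding genes, with the number of genes printed in each part. No gene of groups IIb and IIc is in the H3K4me3-alone class, whereas 9 of 12 group I and 5 of 7 group IId genes are.

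Other large families of plant regulators were set beside the WRKY genes, of which 23.9% carried both marks. Of 81 genes with a NAC number as symbol, 53.1% carried H3K27me3, 35.8% H3K4me3 and 7.41% both. Of 115 genes with a MYB number, 69.6% carried H3K27me3, 28.7% H3K4me3 and 12.2% both. Without the domains below the median score, both marks were left on 1 WRKY, 1 NAC and 3 MYB genes, and at 50% of the body on 1, 2 and 2. These differences between families were not tested.

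The marks differed between some WRKY groups. Of the 26 members of groups IIb and IIc, 24 carried H3K27me3 (all genes 31.0%) and none carried H3K4me3 alone (all genes 54.2%). Of the 19 members of groups I and IId, 3 carried H3K27me3 and 16 carried H3K4me3 (all genes 31.0% and 64.4%). The pooling of groups was chosen for this description, and differences between groups were not tested. All 8 genes of group IIb carried H3K27me3, and 3 of them also had H3K4me3 (WRKY6, WRKY31 and WRKY47). In group IIc the genes without H3K27me3 were WRKY45 and WRKY50, which had neither mark. In group IIe, 5 of 7 genes had H3K27me3 and 5 had H3K4me3. Group III was the most mixed, with 5 genes under H3K4me3 alone, 2 under both, 3 under H3K27me3 alone and 2 under neither. Group IIa has 3 genes, and each was in another class, WRKY18 with H3K4me3 alone, WRKY40 with both and WRKY60 with neither.

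As a family, the WRKY genes had shallower mRNA than all genes, as had the NAC and MYB genes. Of 67 members, 47 were listed, 70.1% (57.7 to 80.7%), against 72.9% of all protein-coding genes. Their median depth was 1.52 (95% interval 1.00 to 2.45), against 3.41 over all genes. Among listed genes the median was 2.62 for members and 6.92 for all genes. A depth of at least 10 was reached by 5 members, 7.46%, against 28.3% of all genes. The median depth was 1.15 for NAC and 1.00 for MYB genes, and 9.88% and 8.70% of them reached 10. At the low end 7 members stood at exactly 1.00, the lowest value in the table.

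The 5 deepest members carried H3K4me3 alone. WRKY70 (AT3G56400), which links salicylate and jasmonate signalling, had a depth of 39.7, at the 89.3rd percentile of listed genes. WRKY11 (AT4G31550), a negative regulator of basal resistance, had 33.5. WRKY3 (AT2G03340), which acts against necrotrophic fungi, had 16.2. WRKY20 (AT4G26640) had 13.3. WRKY54 (AT2G40750), a relative of WRKY70 that acts with it in restraining senescence, had 11.3. H3K4me3 lay over 70.6% of the body of WRKY70 and 21.5% of that of WRKY20, so the deepest members were not all widely covered.

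The widest H3K4me3 cover was on WRKY33 (AT2G38470), the regulator of camalexin synthesis that the kinases MPK3 and MPK6 phosphorylate. A domain of 2100 bases on chromosome 2 (16108501 to 16110600, TAIR10) lay over 82.9% of its body and scored at the 98.0th percentile of its list. Its depth was 9.17. WRKY15 had the mark on 80.7% of its body at a depth of 8.43. Broad H3K4me3 did not always go with deep mRNA. WRKY22 (AT4G01250), which acts in the response to bacterial flagellin, had 69.8% of its body under H3K4me3 and a depth of 1.56. WRKY46 (68.0%, depth 3.90), WRKY53 (65.1%, depth 3.45) and WRKY18 (64.5%, depth 4.12) were of the same kind. WRKY53 is a regulator of leaf senescence, and WRKY46, WRKY53 and WRKY70 act together in basal resistance. The other members of the class lay below a depth of 10. WRKY21 (7.72), WRKY7 (5.74) and WRKY39 (3.13) belong to the calmodulin-binding group IId. WRKY32 had 7.02 and WRKY69 had 4.45.

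**Figure D2:**
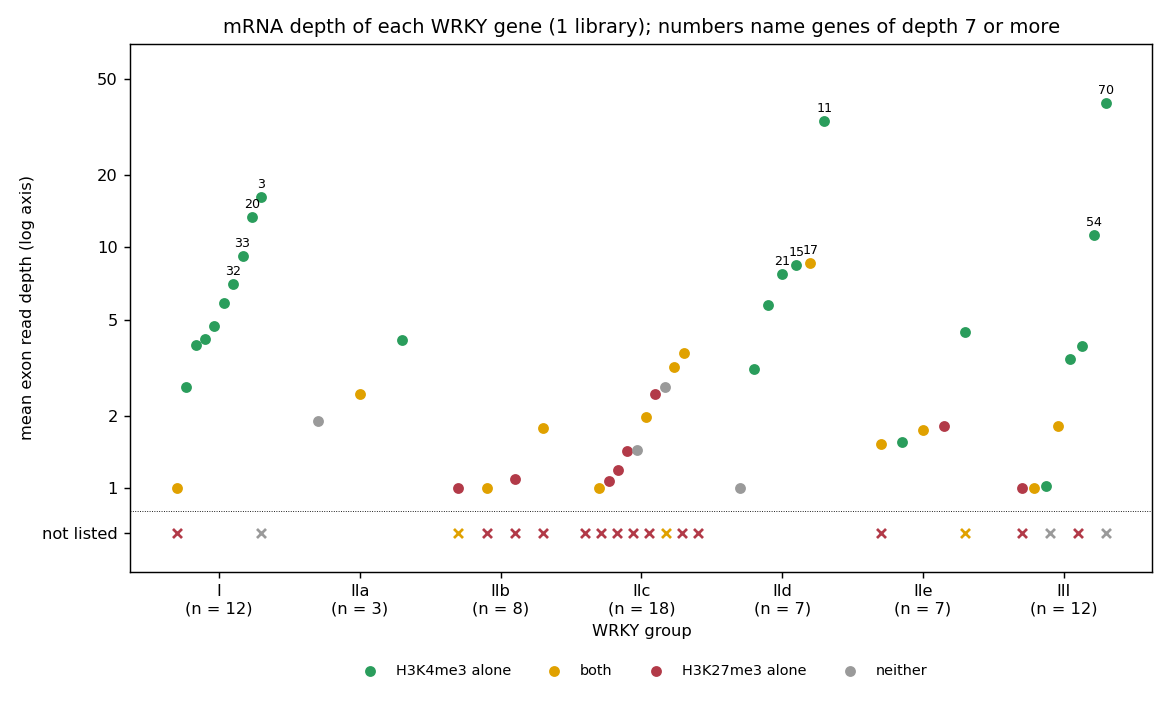
Each point is a WRKY gene, with its mean exon read depth in the mRNA library on a log axis and its WRKY group on the horizontal axis. Colour gives the marks, crosses below the dotted line are genes not listed, and numbers name genes of depth 7 or more. WRKY70 and WRKY11 lie highest, and no gene with H3K27me3 reaches a depth of 10.

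Members with H3K4me3 alone were deeper than members with H3K27me3. The 22 members with H3K4me3 alone were all listed, against 98.2% of that class over all genes. Their depths ran from 1.02 (WRKY41) to 39.7, with a median of 5.22, against a median of 8.93 in that class over all genes. The 16 members with both marks had a median of 1.63 and a maximum of 8.63, and 13 (81.3%) were listed. Over all genes with both marks the median was 2.36 and 79.0% were listed. Of the 22 members with H3K27me3 alone, 8 (36.4%) were listed, with depths from 1.00 to 2.45, and the median was 0. Over all genes of that class 26.0% were listed and the median was also 0. The shares listed were thus close to those of all genes of the same class. The ranges of the classes overlapped. Mean log2(depth + 1) was 0.80 over the 38 members with H3K27me3 and 2.37 over the 29 without, a difference of -1.57. Across the 67 members, Spearman rho with depth was 0.78 for bases under H3K4me3 and -0.56 for bases under H3K27me3. Over all 27444 protein-coding genes it was 0.76 and -0.47. These values describe genes of a single library, whose depth and domains share gene length, and genes are not replicates.

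H3K27me3 was also compared between WRKY genes and all genes of like depth. Among genes that were not listed, 17 of 20 members (85.0%) carried it, against 64.6% of all protein-coding genes. Between a depth of 1 and 2, 16 of 21 members (76.2%) carried it, against 42.5% of all genes. Between 2 and 5, 4 of 14 members (28.6%) did, against 17.9%. Between 5 and 10 it was on 1 of 7 members (14.3%), against 9.26%. At 10 or more it was on 0 of 5 members, against 10.9%. The share was thus above that of all genes among unlisted genes and between 1 and 2. The bins above a depth of 2 held 4, 1 and 0 carriers, too few to tell their shares from those of all genes. The differences were not tested.

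**Figure D3:**
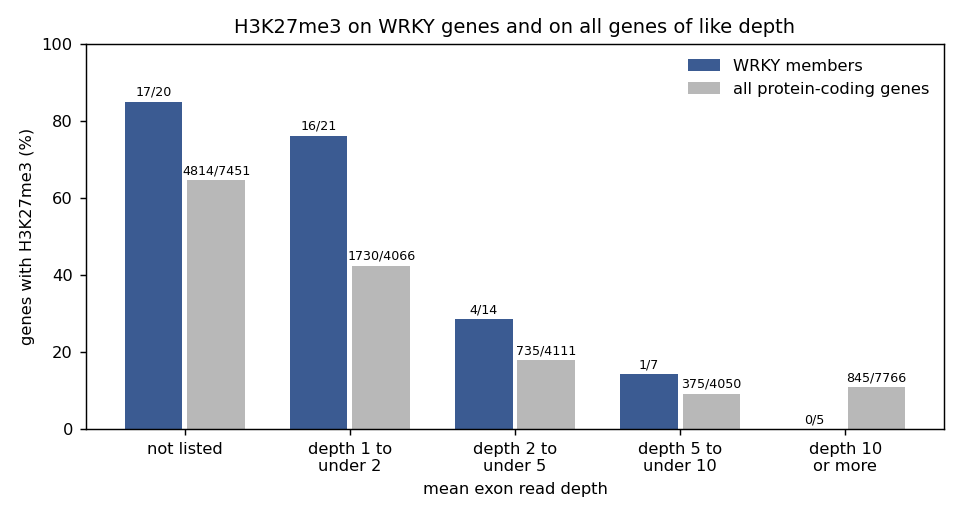
Bars give the share of genes with H3K27me3 (%, vertical axis) among genes in bins of mean exon read depth, for WRKY members on the left and all protein-coding genes on the right of each pair, with the number carrying the mark over the number in the bin above each bar. In the bin of depth 1 to under 2 the bars stand at 76.2% and 42.5%.

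Of the members with H3K27me3 alone, 4 lay wholly under it. These were WRKY12, WRKY56, WRKY71 and WRKY72, and none was listed. WRKY12 represses secondary wall formation in stem pith, and WRKY71 acts in shoot branching. The widest domain on any member was on WRKY72 (AT5G15130), which acts in resistance to nematodes and oomycetes. It spanned 5400 bases on chromosome 5 (4901701 to 4907100) and scored at the 99.3rd percentile. WRKY61, its close relative in group IIb, had 99.8% of its body under the mark and was not listed. WRKY12 lay in a domain of 4500 bases on chromosome 2 (18446101 to 18450600).

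The 8 listed members with H3K27me3 alone were shallow. WRKY8 (AT5G46350), which acts in defence against viruses and in salt stress, had the deepest mRNA, 2.45, with 98.1% of its body under H3K27me3. WRKY29, which acts beside WRKY22 in flagellin signalling, had a depth of 1.81 and 84.6% cover. WRKY13, a regulator of stem sclerenchyma, had 1.42 and 95.8%. WRKY51 had 1.19 and 73.4%. WRKY42, a repressor of the phosphate exporter gene PHO1, had 1.09 and 85.7%. WRKY49 had 1.07 and 79.3%. WRKY36 had 97.7% and WRKY30 had 37.6%, both at a depth of 1.00. WRKY30 had the least cover of these 8, by a single domain of 600 bases.

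The members with the least H3K27me3, WRKY40 and WRKY66, each had a single domain of 300 bases, the narrowest in that list. WRKY66 had 1 such domain on 28.3% of its body, at the 3.3rd percentile of score, and was not listed. WRKY40 had 1 on 15.5%, at the 4.3rd percentile. On WRKY75, which acts in phosphate starvation, domains of 300 and 600 bases lay on 61.5% of the body, and the gene was not listed. Further unlisted members with this mark alone were WRKY43 with 45.5% of the body covered, WRKY9 with 57.1%, WRKY59 with 73.0%, WRKY24 with 83.5% and WRKY14 with 93.6%.

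In members with both marks, H3K4me3 mostly lay inside H3K27me3. All H3K4me3 bases were also under H3K27me3 in 13 of 16 genes, the exceptions being WRKY27, WRKY40 and WRKY48. This was not counted over all genes with both marks. Median H3K27me3 cover was 82.3% of the body in the 16 members, against 52.1% over all genes with both marks. The H3K4me3 domains of the 16 members were narrower, with a median of 450 bases over 19 domains, against 900 bases over 26 domains on members with H3K4me3 alone. Their score stood at a median percentile of 17.1, against 57.5. The H3K27me3 domains of the same genes had a median percentile of 84.5. Median bases of the body under H3K4me3 were 525 in members with both marks and 1050 in members with H3K4me3 alone. Over all genes they were 600 and 750, so the direction was the same there. Without the domains below their list's median score, 13 of the 16 kept H3K27me3 alone, 2 (WRKY27 and WRKY40) kept neither, and WRKY57 kept both, as did 1.01% of all genes. WRKY57, which acts in drought tolerance and leaf senescence, had 900 bases of H3K4me3 within a domain of 3300 bases of H3K27me3 on chromosome 1 (26054701 to 26058000), and a depth of 3.19.

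WRKY17 (AT2G24570) was the deepest member with both marks, at 8.63. H3K27me3 lay on 42.5% and H3K4me3 on 35.4% of its body, with 750 shared bases. WRKY23, which acts downstream of auxin in embryo and root, stood at 3.64, with 82.7% under H3K27me3 and 19.6% under H3K4me3. WRKY40, a repressor of defence genes, had a depth of 2.46. WRKY28, which acts on salicylate synthesis, had 1.97 and a single 150-base H3K4me3 domain. WRKY38 and WRKY62 are related negative regulators of basal defence. WRKY38 had 97.0% under H3K27me3, 9.77% under H3K4me3 and a depth of 1.82. WRKY62 had 100% and 76.9%, at a depth of 1.00. Its 900 shared bases equalled those of WRKY6 and WRKY57, which have longer bodies.

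Of the other genes with both marks, WRKY6, which represses PHO1 and is induced in senescence, stood at 1.78, and H3K27me3 lay on 71.8% of its body. WRKY27, which acts in symptoms of bacterial wilt, had 1.74 and WRKY65 had 1.52. WRKY47, WRKY48 and WRKY58 stood at 1.00. WRKY31, WRKY35 and WRKY68 were not listed, and they were the only members with H3K4me3 that were not. Their H3K27me3 cover was 96.2%, 96.5% and 100%, and H3K4me3 lay on 13.2%, 14.5% and 8.73%.

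**Figure D4:**
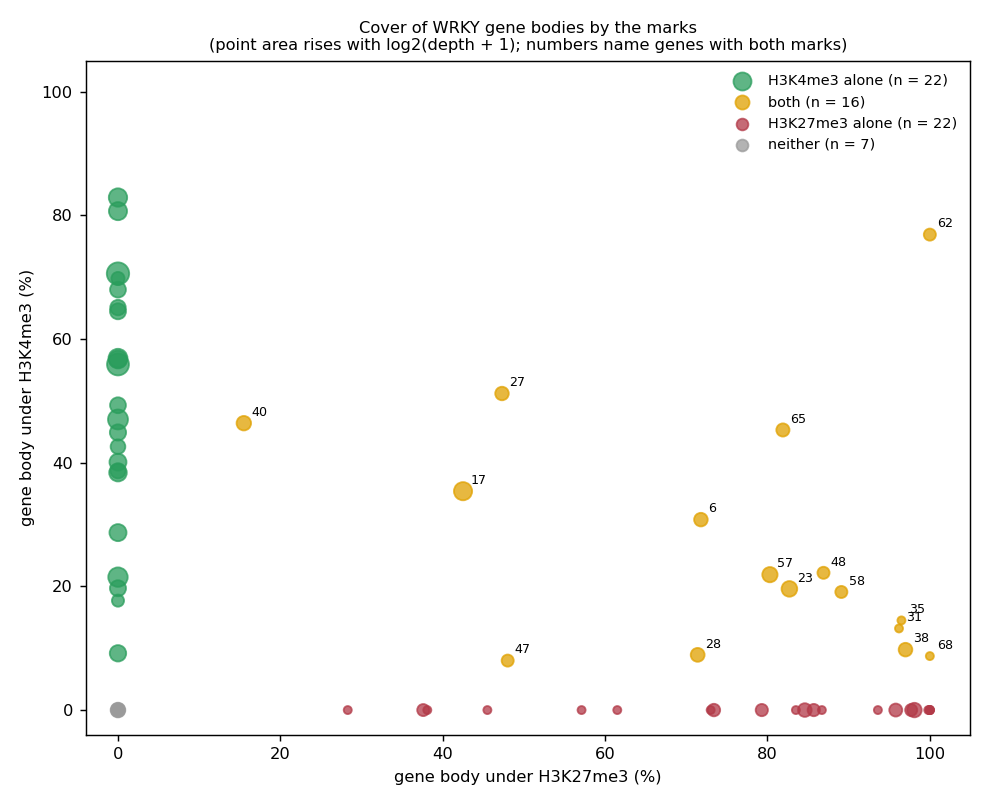
Each point is a WRKY gene, placed by the share of its body under H3K27me3 (horizontal axis, %) and under H3K4me3 (vertical axis, %), coloured by its marks, with an area that grows with log2(depth + 1). Numbers name the 16 genes with both marks. Most of these lie at high H3K27me3 and low H3K4me3, with WRKY62 at 100% and 76.9% and WRKY40 at 15.5% and 46.4%.

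The 7 members with neither mark were also shallow, as were all genes of that class. Of the 7, 4 (57.1%) were listed and the median was 1. Over all genes with neither mark 41.8% were listed and the median was 0. WRKY50, which with WRKY51 represses jasmonate responses, had 2.62. WRKY60, a partner of WRKY18 and WRKY40, had 1.91. WRKY45, which acts on phosphate uptake, had 1.44. WRKY74 had 1.00. WRKY34, a pollen gene, and the neighbours WRKY64 and WRKY67 on chromosome 1 were not listed.

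Of 51 H3K27me3 domains on members, 29 reached past the end of the member and 2 touched another protein-coding gene. Of the 38 carriers, 13 (34.2%) had no protein-coding neighbour with H3K27me3, 20 had it on one side and 5 on both. Over all 8499 carriers the counts were 2494 (29.3%) with none, 3942 on one side and 2063 on both. How often domains of the whole list reach past a gene was not computed. WRKY55 and WRKY54 are neighbours on chromosome 2 with different marks. WRKY55 had H3K27me3 on 38.1% of its body and was not listed, while WRKY54 had H3K4me3 on 56.9% and a depth of 11.3.

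Among the role lists, that of salicylate and pathogen defence had the deepest mRNA. All 23 of its members were listed in the mRNA data (all genes 72.9%). Their median depth was 3.45, against 1.52 over the 67 members and 3.41 over all genes. H3K4me3 was on 18 of them (78.3%, against 64.4% of all genes). H3K27me3 was on 9 (39.1%, exact 95% interval 19.7 to 61.5%), a range that holds the 31.0% of all genes. Both marks were on 6 (26.1%, against 10.1%). The defence list leaves out WRKY27, with both marks and a depth of 1.74, and WRKY72, with H3K27me3 alone and no depth given. Both are described above with roles in disease or resistance, so the defence counts depend on their placement. Of the 4 members of the senescence and phosphate list, WRKY6, WRKY42 and WRKY75 had H3K27me3 and WRKY45 had neither mark. Of these 4, 3 were listed (all genes 72.9%), with at most 1.78. That list leaves out WRKY53, WRKY54 and WRKY70, which also act in senescence but were counted under defence, with H3K4me3 alone and depths of 3.45, 11.3 and 39.7. Its counts and highest depth depend on that placement. Of the 7 development genes, 5 had H3K27me3 (WRKY10, WRKY12, WRKY13, WRKY23 and WRKY71), 71.4% with an interval of 29.0 to 96.3%, against 31.0% of all genes. Of these 7 genes, 3 were listed (all genes 72.9%). WRKY10, also known as MINI3, controls seed size from the endosperm. It was not listed and had 86.7% of its body under H3K27me3. WRKY2, which acts with WRKY34 in pollen, had H3K4me3 alone and a depth of 4.17. The role lists were written from general knowledge, with earlier results of these data known, and were not tested.

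Pairs of related WRKY genes were set side by side. Of 28 pairs of relatives, some of which share a gene, 14 were in the same class of marks and 14 were not. How often other pairs of members share a class was not computed, so relatives are not shown to be more or less alike. The classes also follow the lenient call. Without domains below the median score, WRKY8 and WRKY28 both had H3K27me3 alone, whereas WRKY70 kept H3K4me3 and WRKY54 had neither mark. WRKY11 and WRKY17 have overlapping functions in basal resistance. WRKY11 had H3K4me3 alone and a depth of 33.5, and WRKY17 had both marks and 8.63. WRKY54 and WRKY70 both had H3K4me3 alone, at 11.3 and 39.7. WRKY3 and WRKY4 likewise had it alone, at 16.2 and 5.86. WRKY22 and WRKY29 were at near-equal depths, 1.56 and 1.81, with opposite marks, H3K4me3 alone and H3K27me3 alone. WRKY25, WRKY26 and WRKY33, which act in heat tolerance, all had H3K4me3 alone, at 3.92, 2.63 and 9.17. No sampling error can be put on these depths, so small differences within a pair cannot be ranked.

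**Figure D5:**
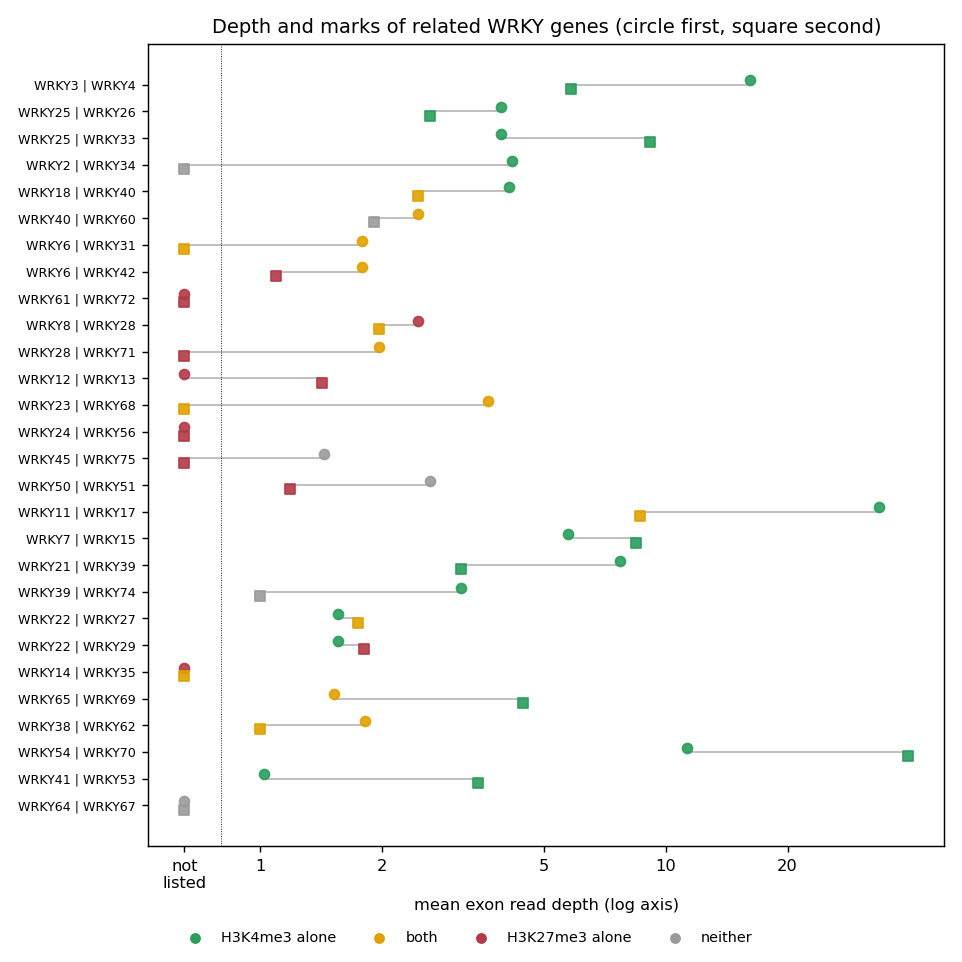
Each line joins a pair of related WRKY genes at their mean exon read depths (log axis), with a circle for the gene named first and a square for the second, coloured by marks. Genes left of the dotted line were not listed. Of the 28 pairs, 14 have the same colour at both ends.

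The upstream kinases and partner proteins of WRKY factors that were examined carried H3K4me3. All 9 kinases (MEKK1, MKK1, named MEK1 in the gene table, MKK2, MKK4, MKK5, MKK9, MPK3, MPK4 and MPK6) had H3K4me3 (all genes 64.4%). All 9 were also listed (all genes 72.9%), with a median depth of 12.4, against 3.41 over all genes. MPK3 was deepest at 49.5, followed by MPK4 at 24.1, which also had H3K27me3 on 35.4% of its body. All 5 VQ protein genes examined, whose products bind WRKY factors, had H3K4me3 alone (all genes 54.2%). SIB1 stood at 23.8 and SIB2 at 22.6.

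The 12 salicylate and defence genes examined were split. H3K4me3 was on 5 of 12 and H3K27me3 on 7. The list mixes regulators of salicylate signalling with response genes, and their order relative to WRKY factors was not examined. PAD4, a regulator of salicylate signalling, had H3K4me3 alone and a depth of 16.8. PR2 (BGL2), a secreted glucanase, had H3K27me3 alone and 13.6. FMO1 and ALD1, which make the signal of systemic resistance, had H3K27me3 alone and were not listed. PR1, the salicylate marker, had H3K27me3 on 66.5% of its body and a depth of 1.15, and PAD3, a camalexin enzyme, had 80.0% and 1.00. Of 6 senescence genes, 4 had H3K4me3 alone, among them NYE1 at 10.9 and SAG101 at 6.90. SAG12, the late senescence marker, had H3K27me3 alone and was not listed, and SAG13 had it alone at 1.00. These shares stand beside 64.4% of all genes for H3K4me3 and 31.0% for H3K27me3.

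Of the 5 genes with a WRKY number only as a synonym, none carried H3K27me3. ZAP1 (WRKY1) had H3K4me3 alone and a depth of 15.1. TTR1 (WRKY16) and RRS1 (WRKY52) are immune receptors with a WRKY domain. Both had H3K4me3 alone, at 6.15 and 6.00, in domains of 1800 bases that also covered the neighbouring gene, AT5G45060 beside TTR1 and RPS4 beside RRS1. WRKY19, a member that joins receptor and kinase parts to WRKY domains, had H3K4me3 alone and 4.70. TTG2 (WRKY44), which acts in trichomes and seed coat, had neither mark and 1.45. ABO3 (WRKY63), which acts in abscisic acid responses, had neither and was not listed.

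The bodies of 13 members overlap another annotated gene, whose reads and marks cannot be separated from theirs here. They are WRKY2, WRKY4, WRKY9, WRKY19, WRKY29, WRKY33, WRKY34, WRKY40, WRKY41, WRKY53, WRKY61, WRKY68 and WRKY69. Among the 54 others, 33 had H3K27me3, 29 had H3K4me3 and 14 had both.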

How the data were processed

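Per the submitters' processing notes, Bowtie, SICER and the TAIR10 build were used; their versions and settings, and the part of replicates and input in the calls, are not stated there. The authors deposited 1 domain list per mark, with a score per domain whose unit is not stated, which served here to rank the domains of that list. Widths were multiples of 150 bases (H3K4me3) and 300 bases (H3K27me3). Domain coordinates are printed 1-based. The mRNA file deposited by the authors holds a coverage signal, which appears to be the mean read depth over exons, for 20764 loci, none below 1.

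Names and gene bodies came from the RefSeq table of assembly TAIR10.1, of which no coordinate is printed. Moving the H3K4me3 domains by up to 3000 bases either way in steps of 250 gave the most bases inside gene bodies at a shift of 0. Overlaps were computed in Python 3.11.15 with pandas 2.3.3 and tested on simulated intervals. The 95% intervals of shares are exact (Clopper-Pearson), and those of medians use order statistics. The pseudocount was 1.

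The members and lists were chosen with earlier results of these data known. WRKY groups, roles and pairs of relatives were written from general knowledge; pairing by protein identity was planned, but no protein sequences were used. Any member could be named; full values were meant for the 5 deepest, the listed members outside the most frequent class, those with both marks or neither, and the widest cover by each mark. Other members named are examples chosen after their values were seen. The alternatives tried were other minimum overlaps, a score threshold, members by synonym, listed members only, another pseudocount and, added after seeing the data, leaving out members that overlap another gene and stricter calls for the NAC and MYB genes.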

Additional observations from a re-analysis of the deposited data

How the results depend on the processing

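The number of members with H3K27me3 stayed between 30 and 38 over the 6 alternatives tried, and that with H3K27me3 alone between 19 and 30. H3K4me3 depended on the call. It was on 12 members with at least 50% of the body covered and on 15 without the domains below their list's median score. Both marks were then on 1 and 1 member, and neither mark on 26 and 22. The median depth was 2.62 over listed members only. The median depth of members with H3K4me3 alone minus that of members with H3K27me3, 4.22, became 6.72 at 50% of the body, 5.79 under that score limit, 4.86 with members by synonym and 3.70 among listed members. The difference in mean log2 values between members with and without H3K27me3, -1.57, became -1.35, -1.25, -1.54 and -1.19 under the same settings in that order, and -2.78 with a pseudocount of 0.1. The cause was not tested. No paired analysis was possible because each mark has a single list for its replicates and mRNA a single library, which also leaves no replicate to omit. Depth is unknown, so an unlisted gene is not shown to be silent.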

Other observations

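The share of WRKY genes with H3K27me3 differed between chromosomes, each of which held only 6 to 16 members. It was on 12 of 15 members on chromosome 1 (80.0%) and on 11 of 15 on chromosome 5 (73.3%). On chromosomes 2, 3 and 4 it was on 7 of 15, 2 of 6 and 6 of 16 members. Over all protein-coding genes the share per chromosome lay between 30.5% and 32.0%. Those shares rest on far more genes and so vary less, and the spreads cannot be compared. This split was seen after the data were examined and was not tested.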
